A study of Homo sapiens with 6 samples.

Results

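The caveolae proteins and the epithelial membrane protein (EMP) family were followed in M5, a subpopulation of the human colorectal cancer line SW480, and in SW480 itself. The members were the caveolin genes CAV1 and CAV2, the cavin genes CAVIN1 and CAVIN3, the caveola ATPase gene EHD2, and EMP1, EMP2, EMP3 and PMP22. A gene entered through probe sets that carry its symbol and no other in the platform annotation. By this rule 8 of the 9 named genes had values, with 23 probe sets out of 41091 single-symbol probe sets for 19775 genes, and PMP22 was not analysed here. The genes are a functional group that was proposed with earlier results of the same arrays in view; it was in part selected on the signal difference of EMP1 between M5 and SW480 on the brighter arrays. Each difference between M5 and SW480 is therefore given for these genes as a description, with no test.

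The assay was the Affymetrix U133 Plus 2.0 expression array, where a set of short probes stands for a transcript and gives 1 signal. In vivo selection from SW480 gave M5, which is described in the labels as more able to metastasise to the liver. Both populations were cultured in RPMI 1640 medium with fetal bovine serum and antibiotics, and each has 3 arrays called biological replicates. The labels give neither the animal nor the number of clones behind M5, so M5 stands for 1 selected population.

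Caveolae are small flask-shaped pits of the plasma membrane. Caveolin-1 and caveolin-2 form the membrane-embedded part of their coat, cavins form a peripheral layer on it, and EHD2 sits at the neck and holds the pit at the surface. Caveolae buffer membrane tension, take part in endocytosis and hold signalling receptors, and caveolin levels have been linked to both restrained and aggressive growth of carcinoma cells. The EMP proteins and PMP22 are small membrane proteins that span the membrane several times in a claudin-like arrangement, and they act in cell adhesion, membrane traffic and epithelial growth. EMP2 in particular is known to regulate caveolin levels and integrin traffic.

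The arrays differed in brightness. The 2% trimmed mean signal was 27.2 on M5 replicate 1 and 21.1 on SW480 replicate 1, called the dimmer pair here, and 53.8 to 87.1 on the other 4 arrays. Values below are signals after quantile normalisation, which gives all arrays the same distribution, unless deposited signals are named. M5 replicates 2 and 3 correlated at r = 0.994 over 3846 bright probe sets, against 0.898 to 0.958 for the other pairs of arrays. They therefore enter means and SDs as 1 sample. Over all kept probe sets, dim ones included, their r was 0.943, within the 0.884 to 0.944 of the other pairs. The limma log2 differences, SEs and folds beside those means take the 6 arrays as 6 samples, so a fold is not the ratio of the printed means. With M5 replicates 2 and 3 averaged in the fit, the log2 difference was 1.39 (SE 0.28) for CAV1, 1.77 (SE 0.36) for CAV2, 1.28 (SE 0.59) for CAVIN3, 2.30 (SE 0.60) for EMP1, 1.03 (SE 0.38) for EMP3 and -0.82 (SE 0.41) for EMP2. A control for 18S ribosomal RNA split the arrays another way, with 3581.8 on M5 replicate 1 and 2823.9 and 4163.4 on SW480 replicates 1 and 2, against 96.3 to 234.1 on the other 3. Each member is therefore also given within these subsets. Detection calls were not available for use here, and which signals lay above background is unknown.

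CAV1, CAV2, EMP1, EMP3 and CAVIN3 had higher mean signals in M5, CAVIN1 and EHD2 differed little, and EMP2 had a lower mean. By each gene's brightest probe set the log2 difference was positive for 7 of 8 genes, against 49.3% of all genes. The median was 1.17, against -0.01 over 14243 genes. No difference lay past an adjusted p of 0.05 over all genes in the limma fit of 6 arrays: 0 of 8 members were called in either direction, where 0.0702% of all genes were called higher and 0.0632% lower. The groups did not overlap, with every M5 array above every SW480 array, for 3 of the 8 genes (CAV1, CAV2 and EMP1), against 7.74% of all genes, and for none lower, against 8.36%. Without the dimmer pair the fit called 5 of 8 members higher and 0 lower, against 5.06% and 6.29% of all genes. Leaving out SW480 replicate 1 alone gave 4 members higher and 0 lower, against 0.705% and 0.388% of all genes. Leaving out M5 replicate 1 gave 3 higher and 0 lower, against 0.717% and 1.05%. Leaving out the dimmer pair and averaging M5 replicates 2 and 3 again gave 5 higher and 0 lower, against 0.833% and 1.25% of all genes. Since the same contrast was known when the genes were chosen, nothing is read from these counts.

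**Figure D1:**
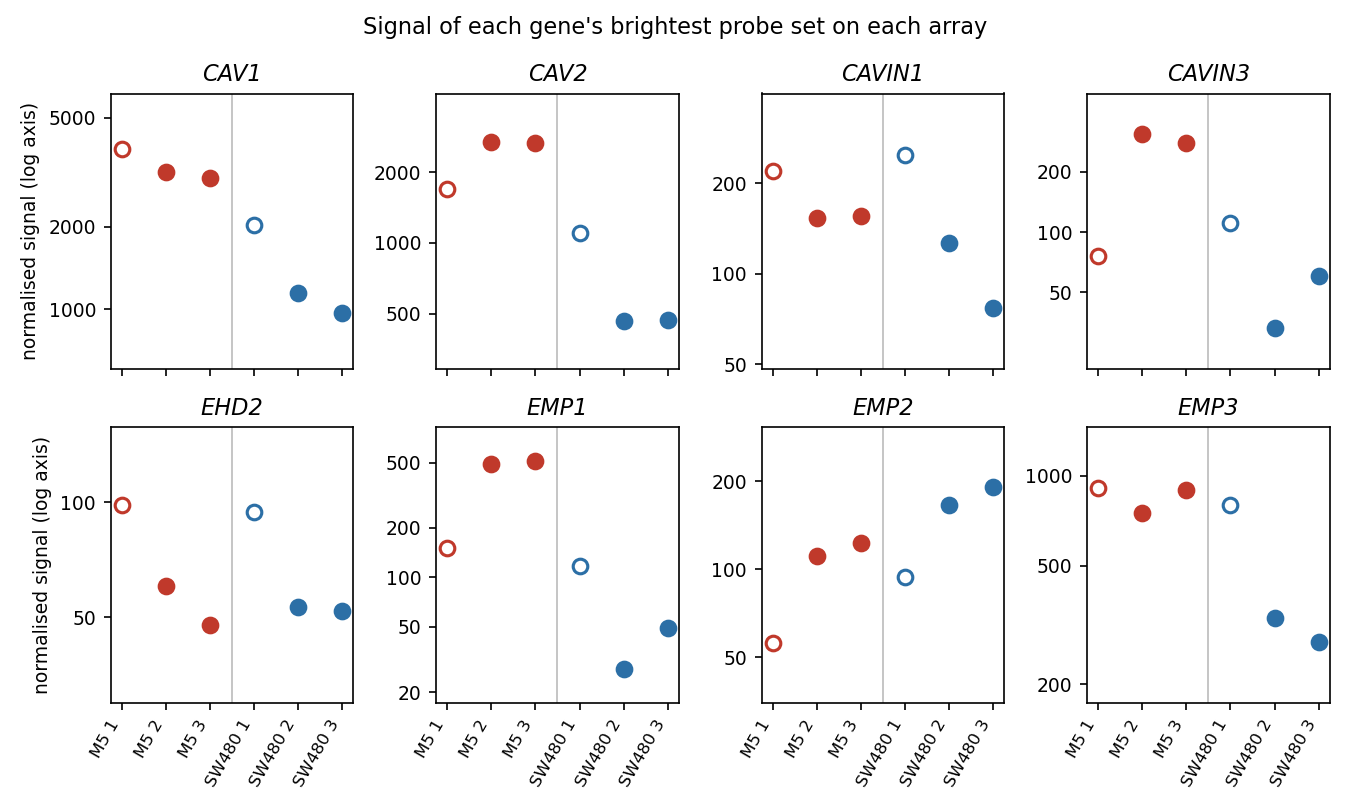
Normalised signal (log axis) of each gene's brightest probe set on the 3 M5 arrays (red) and the 3 SW480 arrays (blue), with the dimmer pair as open circles. CAV1, CAV2 and EMP1 have every M5 array above every SW480 array, while the EMP3 array of SW480 replicate 1 (799.3) lies inside the range of the M5 arrays.

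CAV1 encodes the main structural protein of caveolae. Its brightest probe set gave 3830, 3162 and 3025 on M5 replicates 1, 2 and 3, against 2036, 1152 and 969.7 on SW480 replicates 1, 2 and 3. All 3 M5 arrays lay above all 3 SW480 arrays, and within each group the dimmer array was the highest. The mean was 3462 ± 521 (SD, n = 2) in M5 and 1386 ± 570 (SD, n = 3) in SW480, a log2 difference of 1.34 with a standard error (SE) of 0.24 in limma, or 2.52-fold. The other CAV1 probe set gave 1574, 1355 and 1324 in M5, against 1010, 398.3 and 265.9 in SW480, again without overlap (log2 difference 1.57, SE 0.37). On the deposited scale, before the quantile normalisation, the brightest probe set had 1925, 4354.5 and 4356 in M5 and 768.2, 1053.3 and 1544.5 in SW480. The CAV1 groups were apart there too, which did not hold for the brightest EMP1 probe set below.

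CAV2 encodes caveolin-2, which forms mixed oligomers with caveolin-1 and needs it to leave the Golgi. Its brightest probe set had 1690, 2697 and 2647 on M5 replicates 1, 2 and 3, against 1097, 466 and 469.3 on SW480 replicates 1, 2 and 3. The groups did not overlap, and the 2 dimmer arrays were the ones closest to each other. The mean was 2181 ± 694 (SD, n = 2) in M5 and 677 ± 363 (SD, n = 3) in SW480, a log2 difference of 1.88 (SE 0.31) or 3.68-fold. A second probe set gave 947.7, 1220 and 1100 in M5 and 579.5, 254.1 and 245.4 in SW480 (log2 difference 1.71, SE 0.30). The third CAV2 probe set was dim, with 31.6 to 35 in M5 and 15.8 to 37.9 in SW480. Its groups overlapped, and its log2 difference was 0.52 (SE 0.39).

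CAV1 and CAV2 lie next to each other on chromosome 7, and the bases before their first annotated starts are shown because both genes had higher signals in M5. The sequences are RefSeq's for assembly GRCh38.p14, 250 bases that end at the base before the start, 5′ to 3′ on the plus strand, at chr7:116524759-116525008 for CAV1 and chr7:116499488-116499737 for CAV2. Capitals mark the GC box GGGCGG, a motif of the SP1 and KLF factors, on either strand.
CAV1: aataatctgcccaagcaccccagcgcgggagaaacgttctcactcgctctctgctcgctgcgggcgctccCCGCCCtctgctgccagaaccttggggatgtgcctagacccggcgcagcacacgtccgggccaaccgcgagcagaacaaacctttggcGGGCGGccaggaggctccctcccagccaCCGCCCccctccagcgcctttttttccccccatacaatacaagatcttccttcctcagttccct
CAV2: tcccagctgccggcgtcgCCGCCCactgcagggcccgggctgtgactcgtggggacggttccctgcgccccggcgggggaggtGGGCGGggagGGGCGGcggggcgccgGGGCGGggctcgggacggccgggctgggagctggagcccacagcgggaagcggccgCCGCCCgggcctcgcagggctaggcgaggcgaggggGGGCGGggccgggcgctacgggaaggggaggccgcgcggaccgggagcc
The CAV1 window held 3 GC boxes and the CAV2 window 6. Over 35116 windows of the same length, 42.6% held at least 1 and 24.3% held 2 or more. The CAV2 window had 83.2% G and C and 35 CpG dinucleotides and the CAV1 window 63.6% and 18, against medians of 58% and 11 over all windows. Neither held the AP-1 motif TGANTCA or the TEAD motif GGAATG on either strand, where N is any base. These 3 motifs were picked with the values known, and a match describes letters only.

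The genes around the caveolin pair were read in the order of the RefSeq table, with the 3 nearest measured coding genes on each side. This was added after the values were seen. TES, a focal adhesion gene beside CAV2, had 792.6, 897.2 and 865.1 in M5, against 693.3, 683.3 and 454.7 in SW480 (log2 difference 0.50, SE 0.20, limma adjusted p = 0.383). MET, the receptor kinase gene on the CAV1 side, had 866.6, 608.8 and 588.2 in M5, against 670.1, 1360 and 1084 in SW480 (-0.56, SE 0.26, limma adjusted p = 0.443). The 6 neighbours FOXP2, MDFIC, TES, MET, CAPZA2 and WNT2 had log2 differences between -0.86 and 0.89, each smaller in size than those of CAV1 and CAV2. None of the 6 passed the threshold in limma.

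The cavins and EHD2, the other parts of the caveola coat, did not share 1 pattern. CAVIN1, which encodes the cavin that caveolae need to form, had 219.2, 153.6 and 156 on M5 replicates 1, 2 and 3, against 249.2, 126.8 and 77.03 on SW480 replicates 1, 2 and 3. The groups overlapped through SW480 replicate 1, the highest of all 6. The mean was 187 ± 45.5 (SD, n = 2) in M5 and 151 ± 88.6 (SD, n = 3) in SW480, and the log2 difference was 0.36 (SE 0.37). The other 2 CAVIN1 probe sets had log2 differences of 0.53 (SE 0.42) and 0.04 (SE 0.33), with overlapping groups.

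CAVIN3, whose protein binds caveolin-1 and protein kinase C delta, was measured by 1 probe set. It had 76.42, 307.7 and 279.1 on M5 replicates 1, 2 and 3, against 111, 33.15 and 60.13 on SW480 replicates 1, 2 and 3. M5 replicates 2 and 3 stood above every other array, while M5 replicate 1 lay below SW480 replicate 1. The mean was 185 ± 153 (SD, n = 2) in M5 and 68.1 ± 39.5 (SD, n = 3) in SW480, and the log2 difference was 1.60 (SE 0.53).

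EHD2, the ATPase gene of the caveola neck, had 98.42, 60.41 and 47.75 on M5 replicates 1, 2 and 3, against 94.32, 53.1 and 51.93 on SW480 replicates 1, 2 and 3. The groups overlapped, and the dimmer array was the highest in each. The mean was 76.2 ± 31.4 (SD, n = 2) in M5 and 66.5 ± 24.1 (SD, n = 3) in SW480, with a log2 difference of 0.04 (SE 0.36). The other EHD2 probe sets had log2 differences of -0.14 (SE 0.56) and -0.07 (SE 0.67), so the 3 probe sets straddled 0 within their errors. Arrays centred on the median turned the sign of the brightest one (-0.09).

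EMP1 encodes a growth-linked membrane protein of epithelia. Its brightest probe set had 151, 490.6 and 514.3 on M5 replicates 1, 2 and 3, against 118, 27.67 and 49.37 on SW480 replicates 1, 2 and 3. After normalisation every M5 array lay above every SW480 array, but the dimmer arrays of the groups were close together. The mean was 327 ± 249 (SD, n = 2) in M5 and 65 ± 47.2 (SD, n = 3) in SW480, a log2 difference of 2.58 (SE 0.54) or 6-fold, the largest among the 8 genes. A second probe set gave 95.75, 227 and 232.8 in M5, against 72.19, 24.42 and 26.23 in SW480 (log2 difference 2.20, SE 0.45). On the deposited scale the groups of the brightest probe set overlapped, with 75.7, 619.1 and 676.1 in M5, against 47, 29.4 and 80.7 in SW480. The second probe set had 49.1, 272.6 and 289.7 in M5 there, against 29.9, 25.8 and 40.5 in SW480, without overlap.

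The other 4 EMP1 probe sets were dim. Their signals did not exceed 37.55 on any array, 2 of them fell to the filter on low signal, and the other 2 had log2 differences of 0.85 (SE 0.67) and 1.002 (SE 0.96) with overlapping groups. One of those had 0.967, 37.55 and 15.5 on M5 replicates 1, 2 and 3, against 11.4, 3.85 and 1.38 on SW480 replicates 1, 2 and 3. On the dimmer pair its log2 difference was -2.30, below 0 as were those of the 2 filtered probe sets (-0.05 and -0.38). The other kept dim probe set had 1.64 there. With the median over the 4 kept probe sets in place of the brightest, the EMP1 log2 difference was 1.47.

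EMP2, whose protein regulates integrin and caveolin traffic, had 55.94, 110.5 and 122.8 on M5 replicates 1, 2 and 3, against 94.32, 166 and 191.3 on SW480 replicates 1, 2 and 3. The groups overlapped through SW480 replicate 1, and in each group the dimmer array was the lowest. The mean was 86.3 ± 42.9 (SD, n = 2) in M5 and 151 ± 50.3 (SD, n = 3) in SW480, and the log2 difference was -0.65 (SE 0.36). The log2 differences of all 4 EMP2 probe sets were below 0, between -0.85 and -0.05, and the groups overlapped for each. The probe set at -0.05 had -0.30 on the dimmer pair and 0.08 on the brighter arrays, where the others were below 0.

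EMP3, a family member with a role in cell growth and contact, had 909.3, 747.6 and 896.2 on M5 replicates 1, 2 and 3, against 799.3, 333.9 and 278 on SW480 replicates 1, 2 and 3. SW480 replicate 1 lay within the M5 range and the other SW480 arrays far below it. The mean was 866 ± 61.8 (SD, n = 2) in M5 and 470 ± 286 (SD, n = 3) in SW480, a log2 difference of 1.01 (SE 0.33) or 2.01-fold.

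The bases before the starts of EMP1 and EMP2 are shown because the log2 differences of their brightest probe sets had opposite signs. The EMP2 groups overlapped. They are RefSeq's for GRCh38.p14, 250 bases before the start, 5′ to 3′ along each gene, at chr12:13196476-13196725 on the plus strand for EMP1 and chr16:10580599-10580848 on the minus strand for EMP2. Capitals mark the AP-1 motif TGANTCA and the GC box GGGCGG on either strand.
EMP1: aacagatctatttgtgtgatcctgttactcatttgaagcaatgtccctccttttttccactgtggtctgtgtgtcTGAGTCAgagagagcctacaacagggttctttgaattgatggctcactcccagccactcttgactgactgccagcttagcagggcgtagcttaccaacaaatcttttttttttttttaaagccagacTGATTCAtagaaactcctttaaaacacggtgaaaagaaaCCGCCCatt
EMP2: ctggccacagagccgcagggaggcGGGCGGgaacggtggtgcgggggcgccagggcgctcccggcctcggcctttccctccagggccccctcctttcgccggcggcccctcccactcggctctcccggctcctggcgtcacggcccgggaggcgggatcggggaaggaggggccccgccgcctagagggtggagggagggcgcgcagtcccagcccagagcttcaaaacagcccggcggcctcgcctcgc
The EMP1 window held 2 AP-1 motifs and 1 GC box, had 42.4% G and C and held 3 CpG dinucleotides. The EMP2 window held no AP-1 motif and 1 GC box, with 77.2% G and C and 27 CpG dinucleotides. Over all 35116 windows, 6.57% held the AP-1 motif and 0.402% held it 2 or more times. The TEAD motif, in 11.9% of all windows, was in neither. None of the windows found for the other members, CAV1, CAV2, EHD2 and EMP3, held the AP-1 motif, and sequences were matched for 6 of the 8 genes. Here too the motifs were picked with the values known, a match describes letters only, and a part of AP-1 was not tested.

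**Figure D2:**
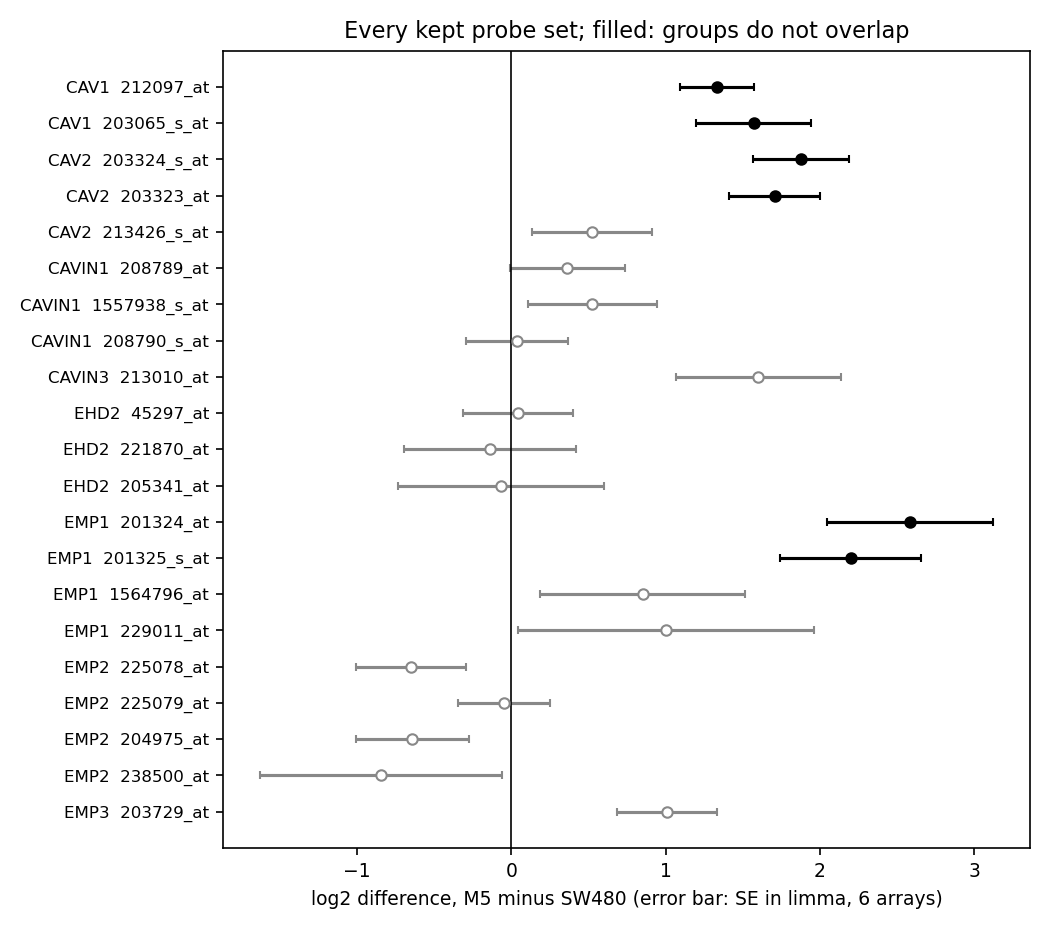
Log2 difference, M5 minus SW480, of each of the 21 kept probe sets with its SE in limma over 6 arrays. Filled points mark the 6 probe sets whose groups do not overlap, 2 each of CAV1, CAV2 and EMP1; the 4 EMP2 points lie below 0.

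Of the 23 member probe sets, 21 passed the filter on low signal, and the 2 that did not were EMP1 probe sets. The log2 difference was above 0 for 15 of the 21 kept and below 0 for 6, with a median of 0.53, against -0.01 over all kept probe sets. The groups did not overlap for 6, all higher in M5, where 7.23% of all 32768 kept probe sets were higher without overlap and 7.89% lower. None of the 21 was called over all 6 arrays in limma, against 0.0397% of all probe sets called higher and 0.0336% lower. Without the dimmer pair 9 member probe sets were called higher and 0 lower, against 3.64% and 4.21% of all probe sets. Dim probe sets of EMP1 and CAV2 had smaller log2 differences than the brighter ones of the same gene. Why they were smaller was not tested.

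Within subsets of the arrays the size of the differences varied more than their direction. On the dimmer pair, the log2 difference of the brightest probe set was 0.91 for CAV1, 0.62 for CAV2, 0.35 for EMP1 and 0.19 for EMP3. On the 4 brighter arrays the same genes had 1.55, 2.51, 3.70 and 1.42. CAVIN3 had -0.53 on the dimmer pair and 2.67 on the brighter arrays, and thus opposite signs. CAVIN1 had -0.18 and 0.64, EHD2 0.06 and 0.03, and EMP2 -0.74 and -0.61. Values above 0 were found for 5 of 8 genes on the dimmer pair and 7 of 8 on the brighter arrays, against 49.4% and 51.2% of all genes.

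The 18S split gave a positive difference for 7 of 8 genes on both sides, against 50.5% of all genes among high and 48.6% among low 18S arrays. Among arrays of high 18S signal the log2 difference was 1.32 for CAV1, 1.24 for CAV2, 1.36 for EMP1, 0.81 for EMP3 and 0.32 for CAVIN3. Among arrays of low 18S signal these were 1.67, 2.50, 3.30, 1.55 and 2.25. EMP2 had -1.14 among high and -0.71 among low 18S arrays. The dimmer pair lies within the high 18S subset, so the 2 splits are not independent. The part of array brightness or of 18S signal in these sizes was not tested.

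**Figure D3:**
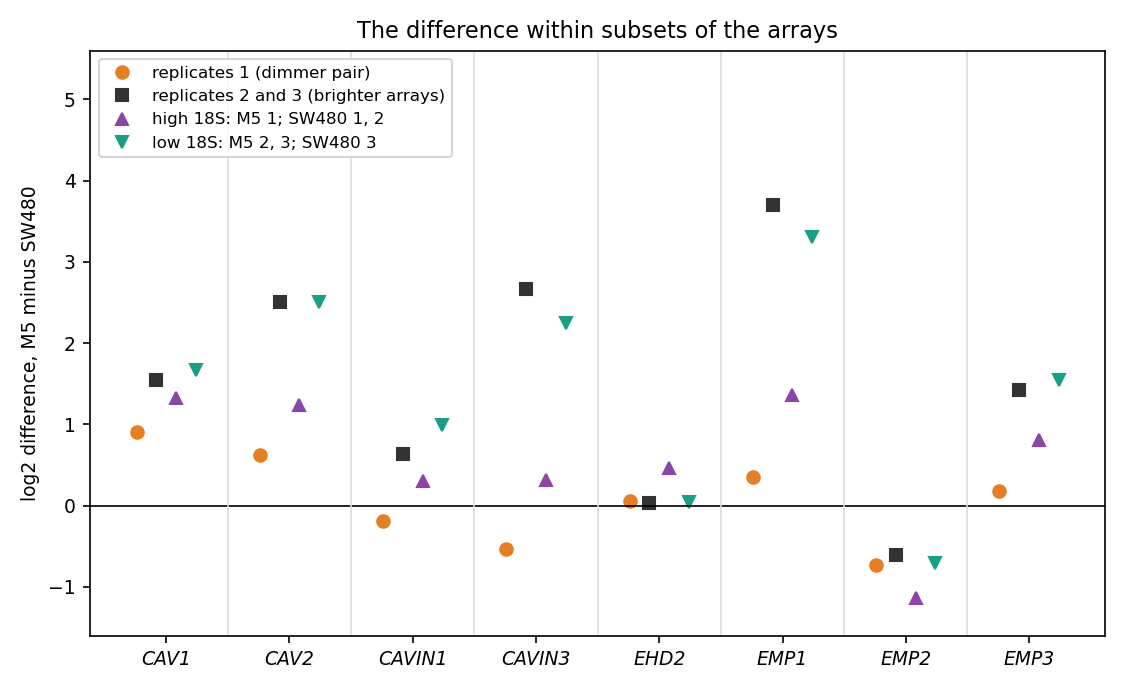
Log2 difference, M5 minus SW480, of each gene's brightest probe set within 4 subsets of the arrays: the dimmer pair, the brighter arrays, and arrays with 18S control signal high or low. CAV1 has the narrowest spread among the genes higher in M5 (0.91 to 1.67), while EMP1 spans 0.35 to 3.70 and CAVIN3 crosses 0.

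The dimmer SW480 array had the highest normalised signal of its group in 16 of the 21 kept member probe sets (76.2%), against 36.6% of all kept probe sets. Ratios of deposited signals on the same array do not depend on scaling between arrays, so 6 pairs of members were compared that way. The pairs were chosen after the values were seen. A ratio compares probe sets of different affinity, so its size has no meaning, and its change between arrays shows only unequal change.

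The ratio of EMP1 to EMP2 was 2.57, 4.81 and 4.59 on M5 replicates 1, 2 and 3, against 1.23, 0.172 and 0.25 on SW480 replicates 1, 2 and 3. The ratio of CAV1 to CAVIN1 was 17.9, 24.1 and 23 in M5, against 8.35, 7.94 and 12 in SW480. That of CAV2 to CAVIN1 was 7.69, 20.4 and 19.6 in M5, against 4.27, 3.41 and 5.98 in SW480. These 3 ratios did not overlap between the groups and were also higher in M5 on the dimmer pair. Their upper genes were those already seen not to overlap after normalisation, so the separation was in part fixed by the choice of pairs. No share over other pairs of genes was taken.

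The ratio of CAVIN3 to CAVIN1 was 0.369, 2.12 and 1.87 in M5, against 0.482, 0.267 and 0.771 in SW480, and that of CAV2 to CAV1 was 0.43, 0.849 and 0.854 in M5, against 0.511, 0.429 and 0.497 in SW480. Both overlapped through M5 replicate 1. The ratio of EMP3 to EMP2, 14.4, 7.48 and 8.13 in M5 against 7.49, 1.91 and 1.43 in SW480, overlapped between M5 replicate 2 and SW480 replicate 1.

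**Figure D4:**
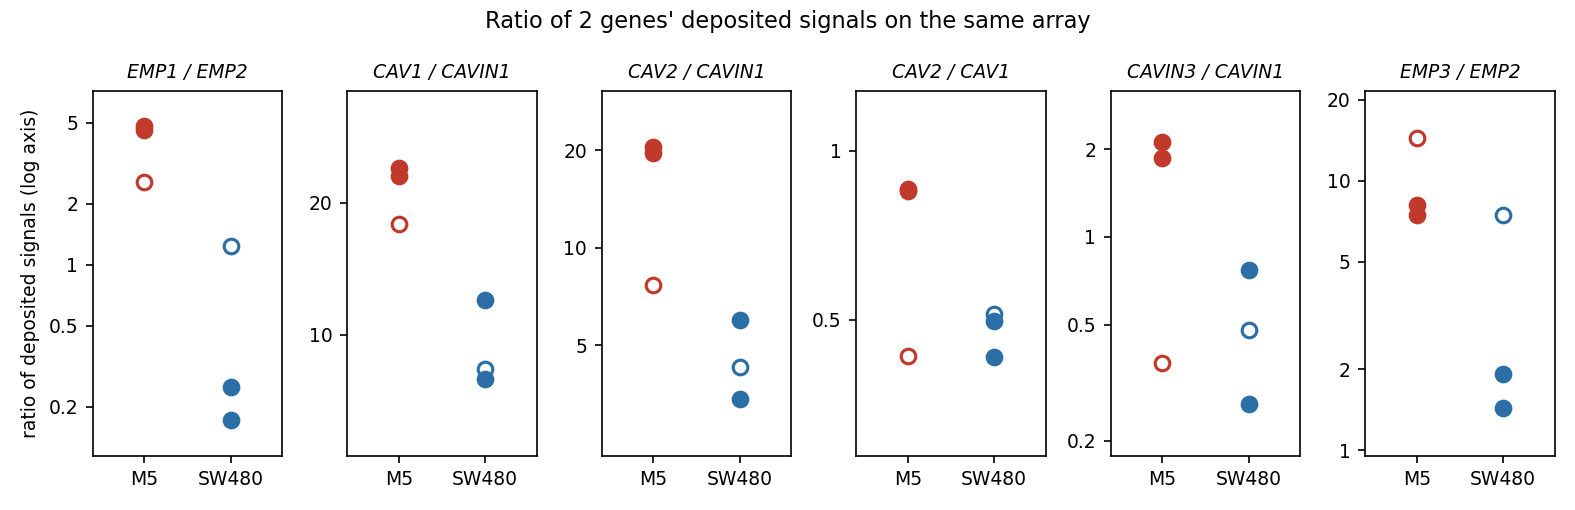
Ratio of the deposited signals of 2 member genes on the same array (log axis) for the 3 M5 arrays (red) and 3 SW480 arrays (blue), dimmer pair open. The EMP1 to EMP2, CAV1 to CAVIN1 and CAV2 to CAVIN1 ratios separate the groups, and the other 3 overlap.

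The nearest measured genes around EMP1 on chromosome 12, EMP3 on chromosome 19 and CAVIN3 on chromosome 11 were read in the same way, 6 around each. Around EMP1 the log2 differences lay between -0.41 (FAM234B) and 1.25 (PLBD1, SE 0.72), below the 2.58 of EMP1. GPRC5A, a retinoic acid-induced receptor gene near EMP1, had 1080, 985.6 and 1021 on M5 arrays, against 1315, 402.9 and 386.4 on SW480 arrays. Its SW480 replicate 1 lay above every M5 array, where that of EMP3 lay within the M5 range. For both genes SW480 replicates 2 and 3 lay below the M5 arrays. Around EMP3 the values lay between -0.51 (ZNF114) and 1.05 (CARD8, SE 0.48), and around CAVIN3 between -0.18 (SMPD1) and 1.37 (HPX, SE 0.58). CARD8 signals were at most 82.28. HPX had 47.55, 43.85 and 19.92 on M5 replicates 1, 2 and 3, against 3.95, 20.57 and 20.43 in SW480. On the dimmer pair its log2 difference was 3.12, where CAVIN3 had -0.53. None of the 24 neighbours passed the threshold in limma over 6 arrays, and the lowest adjusted p was that of CAPZA2 (0.382).

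**Figure D5:**
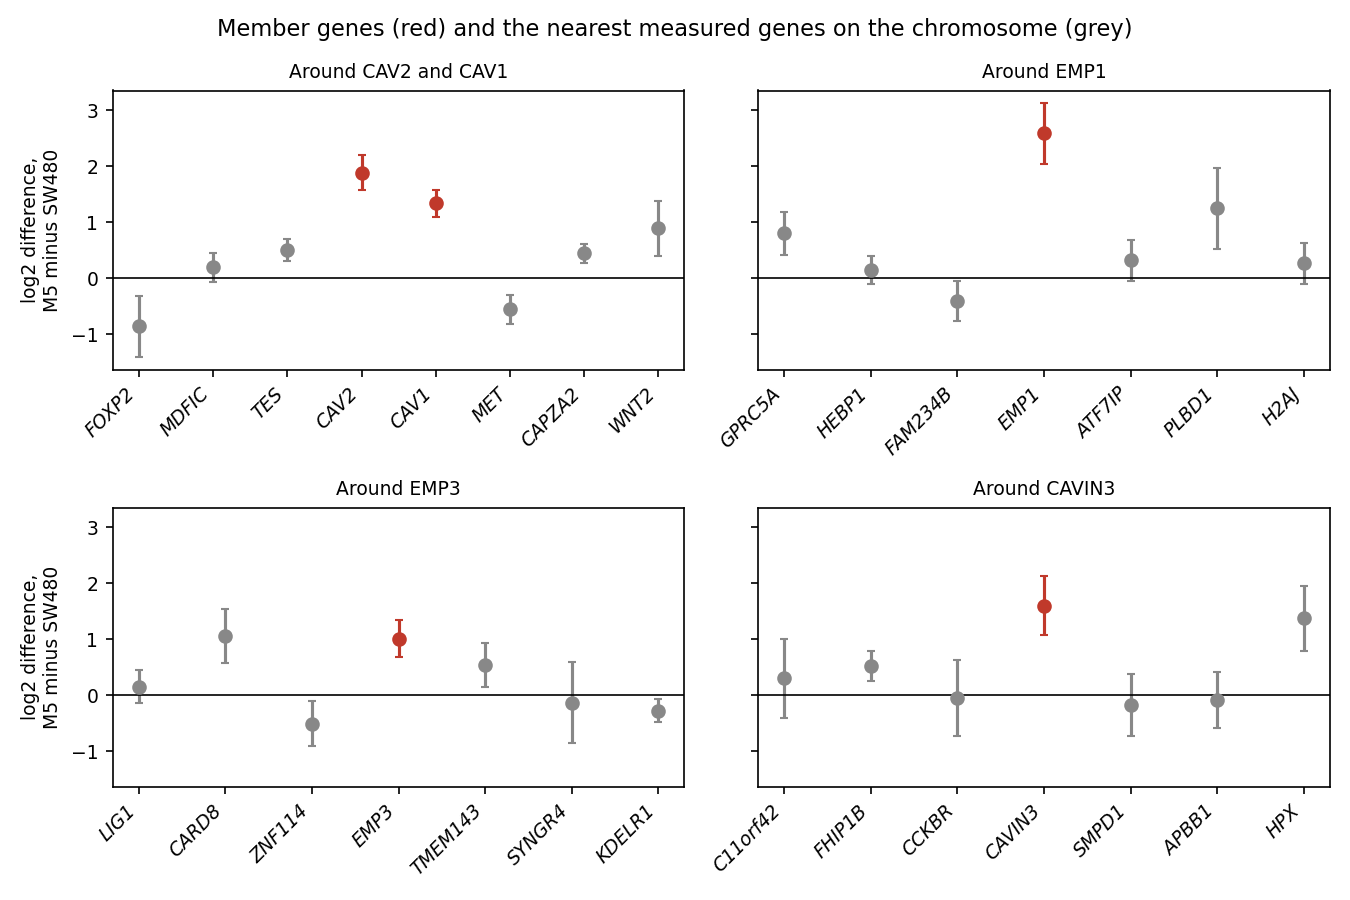
Log2 difference, M5 minus SW480, with its SE in limma over 6 arrays, for CAV2 and CAV1, EMP1, EMP3 and CAVIN3 (red) and the 3 nearest measured coding genes on each side in RefSeq order (grey). CAV2, CAV1 and EMP1 lie above all their neighbours, while CARD8 (1.05) is at the level of EMP3 (1.01) and HPX (1.37) near CAVIN3 (1.60). On the dimmer pair HPX has 3.12 and CAVIN3 -0.53, so the 2 differ between arrays.

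Genes known to work with these proteins were grouped in 4 lists, and 32 of their 43 genes were tested. None of the 32 passed an adjusted p of 0.05 over all genes in limma. At an unadjusted p under 0.05, 5 were higher and 6 lower in M5, where 5.43% of all genes were higher and 6.12% lower by that rule. The median log2 difference of the 32 was -0.05, near the -0.01 of all genes.

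Of the caveola partners, 12 of 16 were tested, with a median log2 difference of -0.08. The gene of EHD1, a relative of EHD2 in endosomal recycling, had 57.75, 152.6 and 174.8 on M5 replicates 1, 2 and 3, against 57.22, 48.82 and 51.98 on SW480 replicates 1, 2 and 3. All M5 arrays were above the SW480 arrays, with a log2 difference of 0.01 on the dimmer pair (over 6 arrays 1.11, SE 0.39, limma adjusted p = 0.334). PACSIN1, a membrane-bending protein gene, had a log2 difference of -1.41 (SE 0.62, limma adjusted p = 0.418) from signals of at most 19.9. Of the flotillin and prohibitin-domain list, all 10 were tested, with a median of -0.05.

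STOM, which encodes stomatin, a raft protein with a hairpin in the membrane like that of caveolin, had 224.7, 276.7 and 275 on M5 replicates 1, 2 and 3, against 75.69, 102.8 and 135 on SW480 replicates 1, 2 and 3. The groups did not overlap, and the log2 difference was 1.55 on the dimmer pair and 1.22 on the brighter arrays (1.33 over 6 arrays, SE 0.26, limma adjusted p = 0.105). Its relative STOML1 had 0.68 (SE 0.35, limma adjusted p = 0.487). The flotillin genes FLOT1 and FLOT2, whose proteins scaffold rafts without caveolae, had 0.04 and -0.12.

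Of 8 relatives of the PMP22 family, 2 were tested. CLDND1, a claudin-like membrane protein gene, had 813.6, 429.1 and 286.1 in M5, against 990.7, 1263 and 1227 in SW480 (log2 difference -1.31, SE 0.31, limma adjusted p = 0.184), without overlap. PERP, a p53 target of the same family that acts in desmosomes, had -0.17 (SE 0.15). Of 9 reported partners of EMP and PMP22 proteins 8 were tested, with a median of 0.14. The integrin genes ITGA6 and ITGB4, whose products form the laminin receptor of hemidesmosomes, had 1.01 (SE 0.40) and 0.96 (SE 0.40), with limma adjusted p of 0.385 and 0.399. Both had SW480 replicate 1 within or near the M5 range and SW480 replicates 2 and 3 below it, as EMP3 did.

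The profiles most like those of EMP1 and CAV1 over the 6 arrays were described by Pearson's r among 14243 genes, with no test. The points share the group difference, the dimmer pair and M5 replicates 2 and 3, which were close on bright probe sets. Nearest to EMP1 were PRSS3P2 (r = 0.998), RIOK3 (0.996) and ZNF185 (0.994). Nearest to CAV1 were MYOF (0.997), the gene of the membrane repair protein myoferlin, MRGBP (0.996) and MRPS2 (0.996).

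Caveolae are abundant in fibroblasts, endothelium, adipocytes and muscle, so marker genes of these cells were read on the same arrays. No marker of any list was called in limma, where 0.0702% of all genes were called higher and 0.0632% lower. Only markers past the filter on low signal could be called. These were 6 of 8 for fibroblasts, 3 of 7 for endothelium, 2 of 5 for adipocytes and 4 of 6 for muscle. For hepatocytes they were 5 of 7, for leukocytes 2 of 4 and for epithelium 7 of 8. The summed signal of 8 fibroblast markers was 111 to 185 on M5 arrays and 138 to 187 on SW480 arrays, and that of 7 endothelial markers 39.6 to 56.5 on M5 arrays and 32.7 to 48.7 on SW480 arrays. For 5 adipocyte markers it was 16.8 to 56.8 on M5 arrays and 31.4 to 39.6 on SW480 arrays, and for 6 muscle markers 44.4 to 110 on M5 arrays and 54.9 to 443 on SW480 arrays. The ranges overlapped for each list. CDH5 (at most 9.37), VWF (at most 3.43) and PLIN1 (at most 4.43) were at the bottom of the scale on every array, but other markers were not. COL1A1 had 33.68 to 81.9, CIDEC reached 24.73, and ACTG2 had 395 on SW480 replicate 1 and at most 57.95 elsewhere. ESAM had 10.45, 24.91 and 12.35 in M5, against 1.267, 11.87 and 2.358 in SW480 (log2 difference 1.60), with overlap. The endothelial markers PECAM1 and TIE1 had -0.59 and -0.45. For 7 hepatocyte markers the sum was 84.7 to 367 on M5 arrays and 97.6 to 326 on SW480 arrays, and for 4 leukocyte markers 77.7 to 179 on M5 arrays and 13.8 to 90 on SW480 arrays. Of the leukocyte markers, LYZ had 63.88, 146.7 and 161.4 on M5 replicates 1, 2 and 3, against 73.46, 1.217 and 23.5 on SW480 replicates 1, 2 and 3, and its groups overlapped. The hepatocyte marker TTR, the gene of a serum carrier protein, had 195.7, 73.1 and 5.683 on M5 replicates 1, 2 and 3, against 5.167, 1.667 and 1.433 on SW480 replicates 1, 2 and 3. Its groups did not overlap, with a log2 difference of 3.52 (limma adjusted p = 0.249), while ALB was at most 11.42 on any array. TTR, LYZ and the other single markers were named after their values were seen, and their part in the members' differences was not tested. The 8 epithelial markers summed to 11300 to 12300 on M5 arrays and 9110 to 13000 on SW480 arrays, with the intestinal genes CDX2 at 13.4 or less and VIL1 at 17.02 or less on every array.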

How the data were processed

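RNA of 3 M5 and 3 SW480 arrays was compared. The authors deposited 1 linear intensity for each probe set of an array. The software was GCOS 1.4 per the submitters' processing notes, with settings and scaling target not given in the sources used here. Of 54675 probe sets, 62 controls were left out. Because array brightness differed several-fold, signals were quantile normalised and tested as log2(signal + 1.7), which understates differences of low signals. The added 1.7 is percentile 20 of the deposited intensities. A filter dropped the dimmest 40% of probe sets, leaving 32768, and 14243 genes by their brightest single-symbol probe set. M5 and SW480 were compared with limma 3.58.1 (R 4.3.3; lmFit, eBayes with intensity trend, two-sided) with Benjamini-Hochberg adjustment over all genes or all probe sets. The SE is limma's. The scripts were tested on simulated data. Nothing beyond the labels says that replicates came from separate cultures, so SEs and p-values measure the spread between these arrays, which may be technical, and the number of arrays limits the precision. Symbols follow the platform annotation, which is old; promoter sequences come from RefSeq, and 6 of 8 genes matched.

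The members and lists were chosen with earlier results of these data known. Every member was named with all its probe sets; of each partner list, genes past the threshold or, with none, the 2 with the largest log2 difference; and for EMP1 and CAV1, the 3 genes most like each. TES, MET, the other neighbours, FLOT1, FLOT2 and single markers were named after their values were seen. Alternatives changed scaling, pseudocount, filter, variance model, probe set per gene, blocks, weights and the arrays used. Figures were drawn with matplotlib 3.10.9.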

Additional observations from a re-analysis of the deposited data

How the results depend on the processing

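Across 21 alternatives, the log2 differences of CAV1 (1.14 to 1.64), CAV2 (1.70 to 2.49), EMP1 (1.47 to 3.76), EMP3 (0.72 to 1.47) and CAVIN3 (1.19 to 2.72) stayed above 0. That of EMP2 (-0.96 to -0.31) stayed below it, while CAVIN1 (-0.04 to 0.81) and EHD2 (-0.25 to 0.32) crossed 0. These values keep the probe set that was brightest over 6 arrays, except for the median over probe sets. Without SW480 replicate 3 the brightest EMP2 probe set was another one, with -0.07 in place of -0.44. The fit over 6 arrays called 0 members and 0 partner genes, and no alternative called a member lower. Members called higher were 1 gene with 4 times the pseudocount, 2 genes and 2 probe sets with no filter, 2 and 2 with the dimmer pair as a block, 1 and 1 with the 18S split as a block, 5 and 8 with array weights, 5 and 9 without the dimmer pair, and 5 and 8 without it and with M5 replicates 2 and 3 averaged, an alternative added after the data were seen, in which the spread comes from SW480 replicates 2 and 3 alone. All genes called higher and lower were 14 and 13 with 4 times the pseudocount, 21 and 13 with no filter, 39 and 25 with the dimmer block, 10 and 8 with the 18S block, 542 and 710 with array weights, 717 and 891 without the dimmer pair, 118 and 177 with averaging too, and 14 and 12 with the replicate block. Partner genes called higher and lower were 5 and 4 without the dimmer pair, 5 and 4 with array weights, 1 and 1 without the pair and with averaging, and 1 and 0 with the dimmer pair as a block. With the replicate block, 1 member gene (CAV1) and 1 probe set were higher; after subtraction of group means, r between same-numbered arrays was 0.11, 0.02 and 0.07, below the 0.1 set for pairing in 2 of 3 cases, so the block is no paired test, although both replicates 1 are dim and high in 18S signal. Leaving out 1 array in turn gave 0 to 4 member genes and 0 to 7 member probe sets higher, and 0 to 2 partner genes higher and 0 to 1 lower. Of all genes, those fits called 0 to 0.717% higher and 0.014% to 1.05% lower. Array weights called 3.81% of all genes higher and 4.98% lower, and the dimmer block 0.274% and 0.176%. The pseudocount, no filter, 18S block and replicate block fits called 0.0702% to 0.106% higher and 0.0562% to 0.0913% lower. Shares over all probe sets are given here only for 6 arrays and without the dimmer pair. CAV1 and CAV2 were each called in 8 of 21 alternatives, EMP1 in 5, CAVIN3 and EMP3 in 4, and CAVIN1, EHD2 and EMP2 in 0. The alternatives refit the same 6 arrays and share most of their data, so nothing is read from these tallies. EMP1 was called only in fits that left out or weighted arrays, and its difference on the brighter arrays was part of the selection. With M5 replicates 2 and 3 averaged over all arrays, and without trend, no member was called. Why the counts moved was not tested. Without detection calls, signals near the pseudocount set no firm fold.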

Other observations

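On the 4 brighter arrays, without the dimmer pair, limma called 9 of the partner genes, where 5.06% of all genes were called higher and 6.29% lower. That fit takes M5 replicates 2 and 3, which were close on bright probe sets, as 2 samples. Higher in M5 were EHD1 (log2 difference 1.69, adjusted p = 0.00243), EHD4 (0.85), STOM (1.23), ITGA6 (1.57) and ITGB4 (1.22). Lower were CLDND1 (-1.83), the focal adhesion kinase gene PTK2 (-0.97), the tight junction gene TJP1 (-0.63) and CANX (-0.66), the gene of the chaperone calnexin. On the dimmer pair these genes differed by 0.01, 0.05, 1.55, -0.06 and 0.44 for those given as higher and by -0.28, 0.20, -0.03 and 0.04 for those given as lower, so STOM stood out as the 1 gene whose difference was as large there. With M5 replicates 2 and 3 averaged, 2 of the 9 passed, EHD1 (adjusted p = 0.0367) and CLDND1 (adjusted p = 0.00861), against 0.833% of all genes higher and 1.25% lower, and the other 7 had limma adjusted p between 0.0592 and 0.342.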
